A study of Bos taurus with 4 samples.

Results

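The genes described here build and run the transport system of the primary cilium, and they were measured in granulosa cells, which line the ovarian follicle and nourish its oocyte. The set holds 34 genes of 15216 gene symbols with a probe on the array. KIF3A and IFT46 entered the set because their ratio between donor groups was steady over the arrays, and the other 32 genes entered by function. The set was drawn up with earlier results of these data known. The set covers the kinesin-2 motor, the intraflagellar transport complexes IFT-B and IFT-A, dynein-2, the BBSome with its assembly and recruitment factors, adaptors for ciliary cargo, and the transition zone. Of the 34 genes, 30 had at least 1 probe, with 49 probes in all, and 14 genes had more than 1 probe. IFT172, WDR35, DYNC2H1 and BBS1 had no probe under their symbols or the synonyms searched and were not analysed here.

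The study compared Holstein cattle rated as good or as poor donors of developmentally competent oocytes. Animals had been hormonally stimulated and coasted (left without hormone before collection), and granulosa cells were combined into pools, so every value is one of a pool and not of an animal. Each of 4 two-colour arrays held 1 of 4 good-donor pools (numbers 1 to 4) against 1 of 4 poor-donor pools (numbers 9 to 12), with the good-donor pool in Cy5 on arrays 1 and 2 and in Cy3 on arrays 3 and 4. The design text names 94 heifers and cows and ties good oocytes to cows and poor ones to heifers, while the sample titles name heifers for all arrays, so donor rating and age class cannot be told apart from these labels. The labels give no number of animals per pool, and the p-values measure only the spread between these arrays. All pools were of 1 breed and were stimulated, so no unstimulated state was measured.

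The primary cilium is a single, non-motile antenna on the surface of most vertebrate cells, granulosa cells included. It is built by trains of IFT proteins that kinesin-2 carries outward along the axoneme and dynein-2 carries back. IFT-B is chiefly used for outward and IFT-A for inward traffic, the BBSome moves membrane receptors out of the cilium, and the transition zone at its base acts as a gate. The cilium is best known as the place where Hedgehog signals are received.

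Median foreground intensity was 49.9 to 54.3 in Cy5 and 90.5 to 132 in Cy3, and 29022 to 32719 of 43794 probes exceeded the control limit per channel. All 8 granulosa markers examined passed the filter on dim probes, and their summed linear intensity was 70031 to 117003 in good-donor and 47889 to 110490 in poor-donor pools. The log2 ratios of these sums, good over poor, were 0.69, 1.27, -0.66 and -0.24 on arrays 1 to 4. The sum was thus higher in the Cy5 pool of each array, and its ranges do not compare granulosa content between donor groups. Of the 49 cilium transport probes, 39 exceeded the control limit in all 8 channels, 5 in 4 to 7 channels, 1 in 1 to 3 channels and 4 in none. The 44 probes at or above 4 channels, which cover all 30 genes with a probe, entered the comparison. The 5 left out were second or further probes of KIF3B, IFT74, IFT43, WDR19 and CEP290. Ratios below are log2 of good over poor donors with the SD over 4 arrays, and levels are normalized log2 intensities.

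No cilium transport gene passed the adjusted threshold between donor groups. Of the 40 probes of genes chosen by function, 0 had a limma adjusted p under 0.05, against a background of 0.00% of all 31917 probes tested, and 2 had an unadjusted p under 0.05. One of these was higher in good-donor pools (IFT57, 2.50% of 40 against a background of 2.18%) and one was lower (BBS5, 2.50% against 1.37%). Both shares lie near the background. The values of KIF3A and IFT46, which chose these genes, are given as a description without a test.

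**Figure D1:**
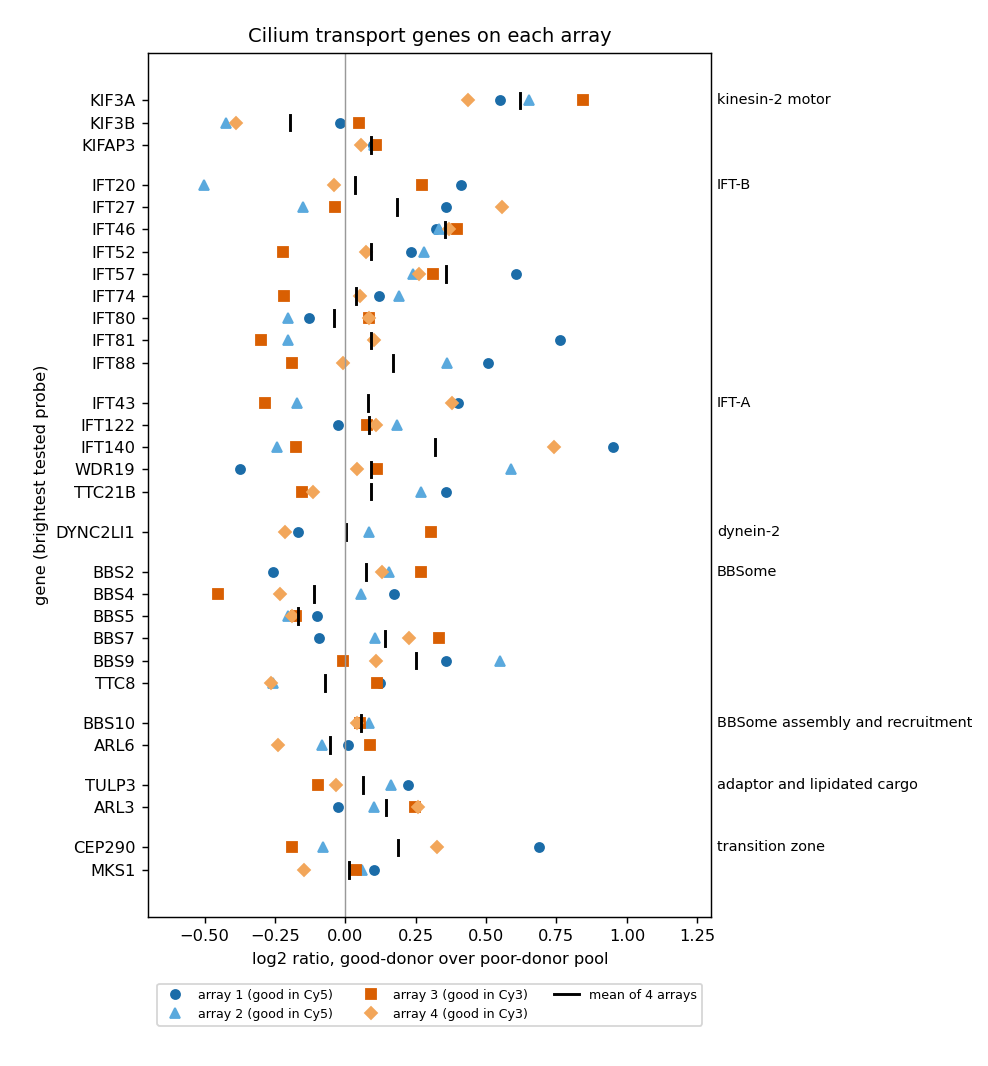
Log2 ratio of good-donor over poor-donor pool (x axis) on each of 4 arrays for the brightest tested probe of 30 cilium transport genes (y axis), grouped by role, with the mean of the 4 arrays as a black bar. KIF3A lies between 0.44 and 0.84 and IFT46 between 0.32 and 0.40 on the 4 arrays, while the points of IFT140 run from -0.24 to 0.95.

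The kinesin-2 motor consists of the motor subunits KIF3A and KIF3B and the cargo-linking subunit KIFAP3. The KIF3A probe EMBV3_22991 had levels of 7.98, 7.98, 8.14 and 7.96 in good-donor pools 1 to 4. In poor-donor pools 9 to 12 the levels were 7.43, 7.33, 7.29 and 7.53. The lowest good-donor pool thus lay above the highest poor-donor pool, and the ratios on arrays 1 to 4 were 0.55, 0.65, 0.84 and 0.44, with a mean of 0.62 ± 0.17 (SD, n = 4), or 1.54-fold. It was the only 1 of the 44 probes with a mean of at least 1.5-fold. These are the values by which KIF3A was picked. In a bulk pool, fewer cells of a type and less RNA per cell cannot be told apart.

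The other KIF3A probes did not give this ratio. EMBV3_15249, above background in all pools, had ratios of 0.04, 0.28, 0.38 and -0.04 and a mean of 0.17 ± 0.20 (SD, n = 4), and its good-donor and poor-donor pools overlapped. EMBV3_09603, above background in 2 of 4 good-donor and 2 of 4 poor-donor pools, had a mean of -0.04 ± 0.10 (SD, n = 4). The means of the 3 KIF3A probes spanned 0.66 log2 units, the widest span among the 14 genes with more than 1 probe. The next was CEP290 with 0.25. The files do not place the probes within the transcript, and why these probes differ was not tested.

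**Figure D2:**
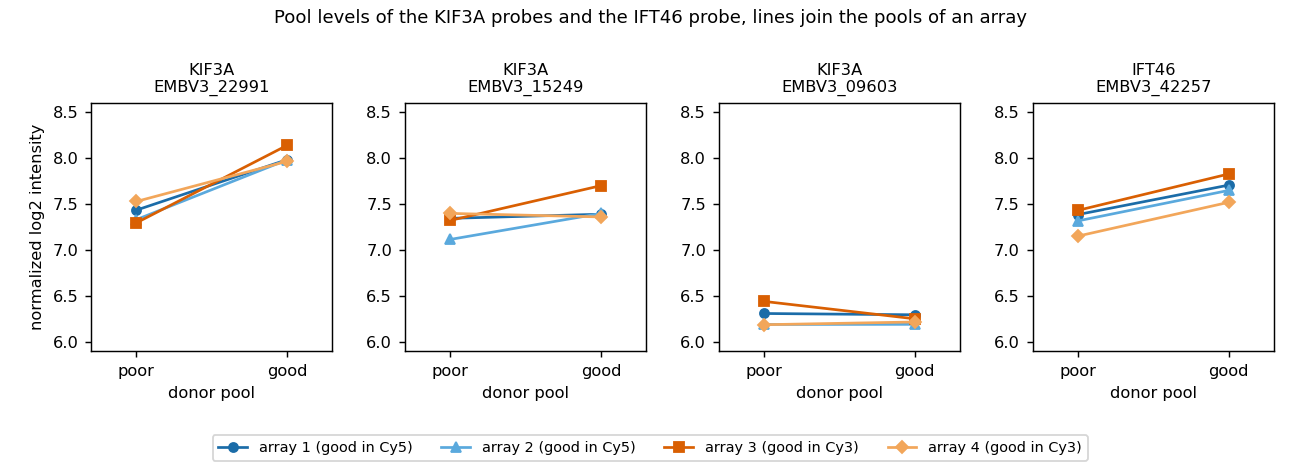
Normalized log2 intensity (y axis) of the 3 KIF3A probes and the IFT46 probe in poor-donor and good-donor pools (x axis), with a line for the 2 pools of each array. All 4 lines slope upward for KIF3A probe EMBV3_22991 and for IFT46, and lie flat or in mixed directions for the other KIF3A probes.

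The partner motor subunit KIF3B had no ratio above 0.05 on its brightest probe. This probe gave -0.02, -0.42, 0.05 and -0.39 and a mean of -0.20 ± 0.24 (SD, n = 4), the lowest mean of the set, with a 95% interval from -0.47 to 0.08. A dimmer KIF3B probe, above background in 5 of 8 channels, had a mean of 0.02 ± 0.11 (SD, n = 4). KIFAP3 had ratios of 0.10, 0.10, 0.11 and 0.06, a mean of 0.09 ± 0.02 (SD, n = 4), and its good-donor pools (9.26 to 9.46) overlapped the poor-donor pools (9.16 to 9.36). Its 4 ratios agreed closely, and the mean was small, with an unadjusted limma p of 0.113 (adjusted p = 1.00).

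IFT-B, the complex that carries building material toward the tip, was represented by 9 of 10 genes. Its brightest probes had a median ratio of 0.09, and 8 of 9 lay above 0. IFT46, a peripheral IFT-B subunit known in Chlamydomonas for the import of outer dynein arms, had levels of 7.71, 7.65, 7.83 and 7.52 in good-donor pools and 7.39, 7.32, 7.43 and 7.15 in poor-donor pools. The pools did not overlap. The ratios were 0.32, 0.33, 0.40 and 0.37, with a mean of 0.35 ± 0.03 (SD, n = 4), or 1.28-fold, and these are the values by which IFT46 was picked. Only 1 probe represented it, annotated under an older symbol.

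IFT57, an IFT-B subunit that entered the set by function, had a mean of almost the same size. Its levels were 8.70, 8.52, 8.46 and 8.38 in good-donor and 8.09, 8.28, 8.15 and 8.11 in poor-donor pools. The groups did not overlap, and the ratios were 0.61, 0.24, 0.31 and 0.26, with a mean of 0.36 ± 0.17 (SD, n = 4) and a 95% interval from 0.15 to 0.56. IFT57 had the smallest unadjusted limma p of the 40 probes, 0.007, and did not pass the adjusted threshold (adjusted p = 1.00). The largest of its ratios came from array 1. Among the 40 probes, 4 lay above 0 on all 4 arrays (10.0% against a background of 5.10%), namely those of KIFAP3, IFT57, BBS10 and the dimmer of both IFT88 probes.

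On their brightest probes, the remaining IFT-B genes had means between -0.04 and 0.18, each smaller than its SD over arrays. IFT88, a core subunit whose loss stops cilium assembly in the mouse, had ratios of 0.51, 0.36, -0.19 and -0.01 on its brightest probe (0.17 ± 0.32, SD, n = 4). Its dimmer probe EMBV3_17331 gave 0.21, 0.05, 0.04 and 0.03. IFT20, which also sits at the Golgi and brings membrane proteins to the cilium, gave 0.41, -0.50, 0.27 and -0.04 (0.04 ± 0.40, SD, n = 4), so its sign changed between arrays of the same dye orientation. The second IFT20 probe had a mean of 0.05 ± 0.12 (SD, n = 4).

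IFT74 and IFT81, which together bind tubulin as cargo, differed in their spread. IFT74 had a mean of 0.04 ± 0.18 (SD, n = 4), and IFT81 had ratios of 0.76, -0.20, -0.30 and 0.10 and a mean of 0.09 ± 0.48 (SD, n = 4). The small GTPase IFT27, which links the trains to BBSome traffic, had 0.36, -0.15, -0.04 and 0.56 on its brightest probe (0.18 ± 0.33, SD, n = 4). Its dimmer probe gave 0.16 ± 0.12 (SD, n = 4), with 2 of 4 poor-donor pools above background. Both IFT52 probes, of a subunit that holds the IFT-B core together, had means close to 0.1 (0.09 ± 0.23 and 0.11 ± 0.11, SD, n = 4). IFT80, mutated in a human skeletal ciliopathy, was the only IFT-B gene below 0 (-0.04 ± 0.15, SD, n = 4).

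IFT-A, the complex used for return traffic and for the entry of membrane receptors, was represented by 5 of 6 genes. All 5 had means above 0, between 0.08 and 0.32, with a median of 0.09, and none had the same sign on all 4 arrays. IFT140, a core IFT-A subunit, had levels of 8.49, 7.77, 7.46 and 8.14 in good-donor pools and 7.54, 8.01, 7.64 and 7.40 in poor-donor pools. Good-donor pools 1 and 4 were the highest of the 8, good-donor pool 3 was among the lowest, and the groups overlapped. The ratios were 0.95, -0.24, -0.17 and 0.74, the mean was 0.32 ± 0.61 (SD, n = 4), and the 95% interval ran from -0.31 to 0.95.

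Other IFT-A genes differed from each other in which arrays were high. IFT43 had 0.40, -0.17, -0.29 and 0.38 (0.08 ± 0.36, SD, n = 4), with the same order of signs as IFT140. WDR19 had -0.37, 0.59, 0.11 and 0.04 (0.09 ± 0.39, SD, n = 4), nearly the opposite on arrays 1 and 2. TTC21B, needed for return traffic, had 0.36, 0.27, -0.15 and -0.11 (0.09 ± 0.26, SD, n = 4), so its sign followed the dye. IFT122 was the steadiest, from -0.02 to 0.18, with a mean of 0.09 ± 0.09 (SD, n = 4).

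Dynein-2, the return motor, was measured only through its light intermediate chain DYNC2LI1. Its brighter probe had a mean of 0.001 ± 0.24 and the other 0.16 ± 0.33 (SD, n = 4). On both probes array 3 was the highest, at 0.30 and 0.62, and array 4 the lowest, at -0.21 and -0.12.

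The BBSome, the coat that takes receptors out of the cilium, had no shared direction. Of its 6 measured genes 3 lay above and 3 below 0, with a median of 0.002. BBS5, a lipid-binding subunit, had levels of 7.40, 7.24, 7.26 and 7.23 in good-donor pools and 7.49, 7.45, 7.43 and 7.42 in poor-donor pools. These did not overlap. The ratios were -0.10, -0.20, -0.18 and -0.19, with a mean of -0.17 ± 0.05 (SD, n = 4), a 95% interval from -0.30 to -0.04 and an unadjusted limma p of 0.021 (adjusted p = 1.00). BBS5 was the only 1 of the 44 probes below 0 on all 4 arrays (2.50% of the 40 chosen by function, against a background of 4.17%).

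BBS9, a core BBSome subunit, had the highest BBSome mean, with ratios of 0.36, 0.55, -0.01 and 0.11 (0.25 ± 0.25, SD, n = 4, unadjusted limma p 0.067, adjusted p = 1.00). Its probe was dim, with a mean level of 6.35 against a median of 6.71 over all probes tested. BBS7 had 0.14 ± 0.18, BBS2 0.07 ± 0.23, TTC8 -0.07 ± 0.22 and BBS4 -0.11 ± 0.28 (SD, n = 4). Each of these changed sign between arrays. BBS10, a chaperonin-like protein used to assemble the BBSome, gave 0.05, 0.08, 0.05 and 0.04 (0.06 ± 0.02, SD, n = 4), the smallest spread of the 44 probes. The BBS10 probe was also dim, with a mean level of 6.53, which limits what its small spread shows. ARL6, the GTPase that recruits the BBSome to membranes, had 3 probes with means of -0.0003, -0.06 and -0.09.

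Adaptor and gate genes had no probe past the adjusted threshold. ARL3, the GTPase that releases lipid-modified proteins inside the cilium, had means of 0.15 ± 0.13 and 0.10 ± 0.14 on its probes (SD, n = 4), each above 0 on 3 of 4 arrays. TULP3, which bridges IFT-A and receptors bound for the cilium, had 0.06 ± 0.15 (SD, n = 4). CEP290, a large transition zone protein, had 0.69, -0.08, -0.19 and 0.32 on its brightest probe (0.19 ± 0.40, SD, n = 4), and 0.04 and -0.06 on probes that were not above background in every pool. MKS1, another gate protein, had means of -0.01 and 0.01.

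Pools of both groups did not overlap for 4 of the 44 probes, namely KIF3A probe EMBV3_22991, IFT46, IFT57 and BBS5. Without the genes picked by their ratios this leaves 2 of 40 (5%, against 1.89% of all probes tested). The means leaned above 0. Of the 44 probes 33 (75%) had a mean above 0, against a background of 49.2%, and the median was 0.08 against -0.001 over all probes. With KIF3A and IFT46 left out, 30 of 40 probes lay above 0 (also 75%), with a median of 0.08. Counted by gene with the brightest tested probe, 24 of 30 genes (80.0%) lay above 0, against 48.4% of 12598 genes. Counted the same way, 8 of 8 granulosa markers lay above 0, with a median of 0.19. Of leukocyte markers 0 of 7 and of epithelial markers 0 of 10 lay above 0. These markers varied between arrays, with a median SD of 0.77 for granulosa, 0.74 for leukocyte and 1.66 for epithelial markers. The granulosa SD exceeded the granulosa median, and the granulosa sum was higher in the Cy5 pool of each array. The part of the cell make-up of the pools in the lean was not tested. The cilium transport probes were read from the same 8 pools and are not independent of each other. The median SD over arrays was 0.17, and 0.17 over all probes, more than the median ratio.

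**Figure D3:**
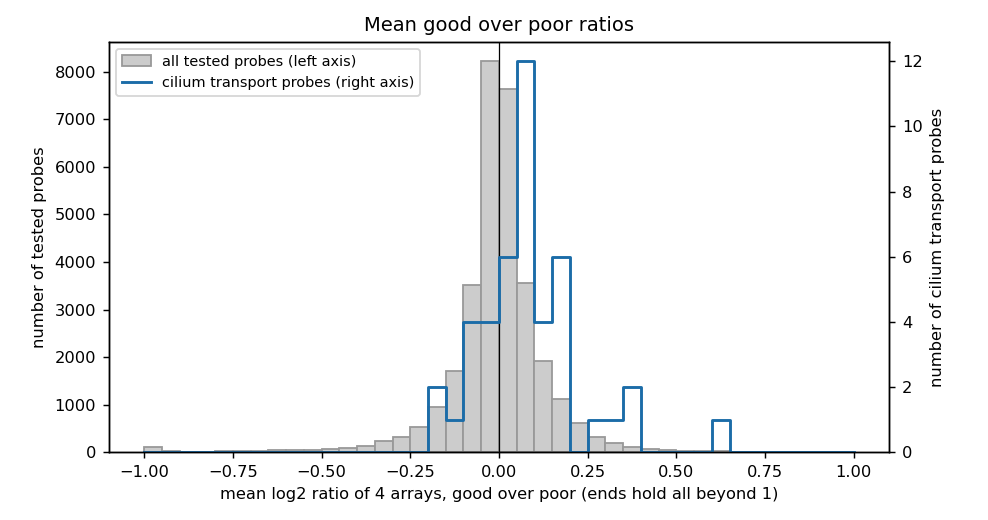
Number of probes (y axes) by mean log2 ratio of good over poor donors (x axis) for all 31917 tested probes (grey, left axis) and for the 44 cilium transport probes (blue line, right axis). The cilium transport probes have a median of 0.08 against -0.001 for all probes, with KIF3A at 0.62 as the highest.

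On arrays 1 to 4, 29, 28, 26 and 28 of the 44 probes lay above 0, with medians of 0.11, 0.08, 0.05 and 0.05. Without array 1, 28 of 44 probes had a mean above 0 and the median over arrays was 0.043, and without array 2 these were 31 and 0.048. Which genes were high differed between arrays. On arrays 2 and 3 alone (1 of each dye orientation, an alternative chosen after the data were seen), 26 of 44 probes lay above 0, and the median was 0.04.

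Because dyes were exchanged, the part of each ratio that followed the dye was measured apart from the donor contrast. No pool was labelled in both dyes, so a dye effect cannot be told apart from differences between the pool pairs of the 2 orientations. In a limma fit with a dye term, 7 of the 44 probes (15.9%, against a background of 16.6%) had an unadjusted dye p under 0.05, and 0 passed the adjusted threshold, with 0.215 as the smallest adjusted p. IFT88 (brightest probe), TTC21B, BBS4, BBS9, TULP3 and CEP290 (probe EMBV3_00663) were higher in Cy5, 6 of the 44 probes against a background of 7.41%. IFT80 was lower, 1 of the 44 probes against 9.20%. The share higher in Cy5 thus lay above its background, and the share lower in Cy5 below it. TTC21B had the smallest dye p, 0.007, with 0.31 where the good-donor pool was in Cy5 and -0.13 where it was in Cy3. For the brightest IFT88 probe these means were 0.43 and -0.10. In 8 of the 44 probes (18.2%, against 29.4% of all probes) the sign was opposite in the 2 orientations. Counted here were only probes with the same sign on both arrays of each orientation. No KIF3A or IFT46 probe was among the 7 or the 8. These genes were picked for steady ratios over both orientations, and without their probes the shares are 7 of 40 (17.5%) and 8 of 40 (20%).

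**Figure D4:**
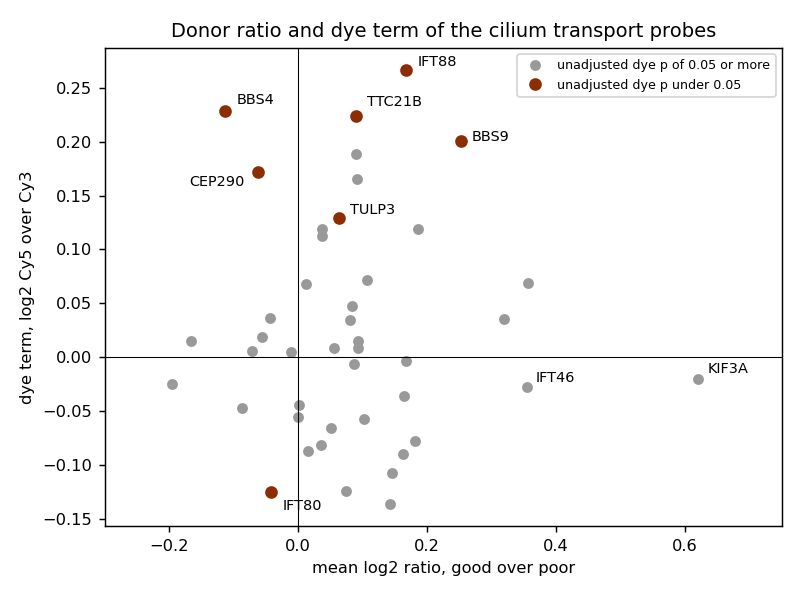
Dye term (y axis, log2 of Cy5 over Cy3) against the mean log2 ratio of good over poor donors (x axis) for the 44 cilium transport probes, with the 7 probes at an unadjusted dye p under 0.05 in brown. The dye terms of the named probes in brown run from -0.13 for IFT80 to 0.27 for IFT88.

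Other genes of the cilium, in lists by function and counted by brightest tested probe, gave 0 genes past the adjusted threshold (limma). Over all 12598 genes counted so, 48.4% lay above 0, and 2.71% were higher and 1.92% lower at an unadjusted p under 0.05. The list of other transport and trafficking genes had a median ratio of 0.06, with 16 genes above and 4 below 0 and 2 at an unadjusted p under 0.05 (KIF17 and BBS12, both higher). The first of these, the homodimeric kinesin-2 motor KIF17, exceeded background in each of the 4 good-donor pools and in 0 of the 4 poor-donor pools. Its mean level was 6.38 over the former and 6.14 over the latter, a measured ratio of 1.18-fold with the poor-donor level not above background. It passed the filter on dim probes only through the good-donor pools, so its p and direction support nothing. Transition zone and ciliary membrane genes had a median of 0.05 (13 above, 6 below 0, 1 at an unadjusted p under 0.05), with the tectonic TCTN1 at 0.17 ± 0.12 (SD, n = 4). Basal body and ciliogenesis genes had 0.05 (12 above, 7 below, 1 at an unadjusted p under 0.05), with CEP164, which docks the mother centriole to the membrane, at 0.15 ± 0.07 (SD, n = 4). This CEP164 probe was dim (mean level 6.35), above background in 4 good-donor and 3 poor-donor pools. Another CEP164 probe, of mean level 6.30, gave 0.04 ± 0.09 (SD, n = 4) and changed sign between arrays.

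Lists on the signalling and turnover side differed in their medians. The 13 measured Hedgehog pathway genes had a median of -0.006 (6 above, 7 below 0). The 11 cilium disassembly genes had 0.08 (10 above, 1 below), with the dynein light chain DYNLT1 at 0.16 ± 0.14 (SD, n = 4). RFX and FOXJ1 regulators, the transcription factors of ciliary genes, had 0.01 (6 above, 2 below), and FOXJ1 itself, the regulator of motile cilia, gave 0.06, -0.22, 0.12 and 0.09. Cytoplasmic dynein-1, dynactin and kinesin-1, transport motors outside the cilium, had 0.002 (8 above, 7 below). By brightest probe, these 4 lists had 0 genes at an unadjusted p under 0.05, and DYNLT1 was their only gene of the same sign on all 4 arrays. A dimmer probe of the disassembly gene TCHP, EMBV3_32381, had an unadjusted p of 0.0396 (limma adjusted p = 1.00) and lay above 0 on all 4 arrays.

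A subset of cilium transport genes was high on arrays 1 and 4 and low on arrays 2 and 3. This order of signs was chosen after the ratios were seen, so the shares that follow are a description only. By brightest probe these were IFT27, IFT81, IFT43, IFT140 and CEP290, or 5 of 30 genes (16.7%, against 5.53% of 12598 genes). Over all 44 probes there were 6 (13.6%, against 4.58%), the sixth a dim MKS1 probe with ratios between -0.04 and 0.02. The reverse pattern was shown by 2 of 44 probes (4.55%, against 4.30%), both of DYNC2LI1. With arrays 2 and 3 alone the means of IFT27, IFT81, IFT43, IFT140 and CEP290 were -0.09, -0.25, -0.23, -0.21 and -0.13. The sign of these means follows from how the 5 genes were selected.

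Genes of motile cilia, which multiciliated epithelial cells such as those of the oviduct carry in large numbers, also had their higher ratios on arrays 1 and 4, with larger values for several genes. Of 25 such genes with a probe 19 passed the filter, with a median of 0.09 (16 above, 3 below 0) and none at an unadjusted p under 0.05. Above 0 on both array 1 and array 4 were 14 of 19 (73.7%, against 21.6% of 12598 genes), and below 0 on array 3 were 15 of 19 (78.9%, against 52.0%). High on arrays 1 and 4 and low on 2 and 3 were 6 of 19 (31.6%, against 5.53%). These sign patterns were also chosen after the ratios were seen, and their shares are a description only. DNAH9, an outer-arm dynein heavy chain, had ratios of 3.54, 0.12, -1.68 and 2.12. ROPN1L, a radial spoke protein, had 3.03, -0.06, -1.48 and 1.08, and the tektin TEKT1 had 1.83, -0.22, -0.82 and 0.92. These 3 were singled out after their values were seen. By the rule for named genes, TEKT4 had 0.36 ± 0.38 (SD, n = 4), with 3 of 4 good-donor and 1 of 4 poor-donor pools above background.

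**Figure D5:**
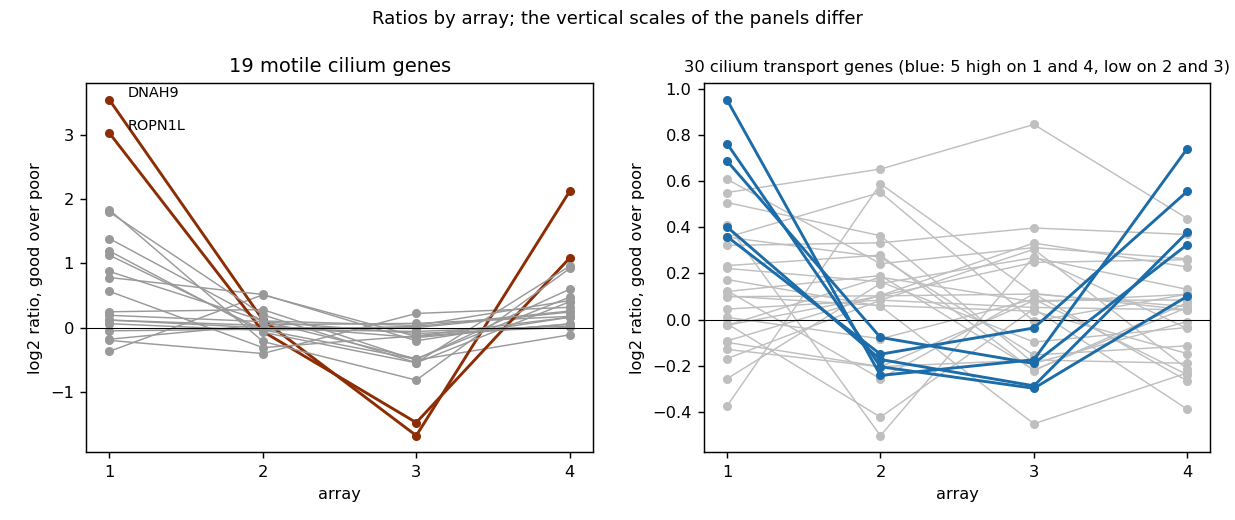
Log2 ratio of good over poor donors (y axis, differing scales) on arrays 1 to 4 (x axis) for 19 motile cilium genes (left) and 30 cilium transport genes (right), with 1 line per gene. DNAH9 and ROPN1L fall from 3.54 and 3.03 on array 1 to -1.68 and -1.48 on array 3, and the 5 transport genes in blue are above 0 on arrays 1 and 4 and below 0 on arrays 2 and 3.

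The summed linear intensity of the motile cilium list was 4438, 3413, 2078 and 3895 in good-donor pools 1 to 4, and 2067, 3337, 2756 and 2453 in poor-donor pools 9 to 12. The log2 ratios of these sums were 1.10, 0.03, -0.41 and 0.67 on arrays 1 to 4. DNAAF1 was not above background in any pool, and the other listed genes with a probe were in at least 1. Epithelial markers, 10 of 10 of which passed the filter, summed to 8215 to 30007 in good-donor and 17713 to 78208 in poor-donor pools, with ratios of 0.76, -0.84, -1.60 and -3.01. Leukocyte markers (7 of 8 passed) summed to 838 to 1587 and 1218 to 5864, with ratios of 0.14, -1.05, 0.38 and -2.81. Pools thus differed in markers of other cell types. The sums of motile cilium genes and of epithelial markers were both above 0 in ratio on array 1 (1.10 and 0.76). Both were below 0 on array 3 (-0.41 and -1.60). On arrays 2 and 4 the motile cilium ratio was above 0 (0.03 and 0.67) and the epithelial ratio below 0 (-0.84 and -3.01). The part of these cells in the cilium transport ratios was not tested.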

How the data were processed

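Per the file headers, the authors deposited 1 scanner file per array that lists, for each spot, foreground and local background intensity (means and medians) in the 635 nm (Cy5) and the 532 nm (Cy3) channel. Per the labels, RNA of a pool went through linear amplification ahead of dye labelling. The authors also deposited a table of log2 ratios, whose normalization is not given in the sources used here. Set against Cy5 over Cy3 it correlated at -0.98, -0.97, 0.96 and 0.98 on arrays 1 to 4, so it runs as poor over good, with slopes of -1.12, -1.15, 1.22 and 1.12, and its column medians were 0.023, 0.0039, -0.015 and -0.029. It was turned to good over poor and used as an alternative only. How it was scaled and centred stays unknown.

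Mean foreground was corrected with median background by normexp (offset 50), ratios were normalized by loess within arrays with control spots at weight 0, and levels by Aquantile between arrays (limma 3.58.1, statmod 1.5.0, R 4.3.3, figures with matplotlib 3.10.9). Probes were tested where foreground exceeded the 95th percentile of 757 dark and negative control spots in at least 4 of 8 channels (31917 of 43794). limma tested the mean of 4 ratios against 0, two-sided, with 3 residual and 1.97 prior degrees of freedom and Benjamini-Hochberg adjustment over all tested probes at 0.05. Intervals are limma's, unadjusted. The number of arrays limits the precision.

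The members and lists were chosen with earlier results of these data known. All members are named, and from each other list the gene with the highest and the lowest mean among those of 1 sign on all 4 arrays (no gene met the lower side). Symbols come from the platform annotation, in which 21790 probes have 1 symbol, 0 have several and 22004 lack one, and 982 of 15229 symbols were updated through RefSeq synonyms. IFT27, IFT43 and IFT46 were matched through an older symbol. Promoter and protein sequences and genome coordinates were not used here. Good and poor pools share an array, so each ratio is a pair, and no batch was examined, since all arrays lay on 1 slide. Alternatives changed the background correction, normalization, filter, dye term, model, spread, weights, source of values and arrays.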

Additional observations from a re-analysis of the deposited data

Results flagged for a closer look

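One result stood apart from its fellows by Dixon's criterion for 4 values. The dimmer IFT88 probe EMBV3_17331 had a log2 ratio of good over poor donors of 0.21 on array 1, against 0.03 to 0.05 on the other 3 arrays. Its gap covered 0.898 of the whole range, above the critical value for 4 values at the 95% level. Sets of 4 ratios were examined for 44 probes and 8 list medians, 52 in all, of which chance would flag about 5%. The brightest IFT88 probe also had its highest ratio, 0.51, on array 1.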

How the results depend on the processing

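Under every alternative tried, 0 cilium transport probes passed the adjusted threshold between donor groups. KIF3A probe EMBV3_22991 ranged from 0.55 to 0.75 and IFT46 from 0.34 to 0.44, which says nothing of their stability, since both were picked for steady ratios on these arrays. The 2 probes at an unadjusted p under 0.05 became 4 with a normexp offset of 16, 4 with separate channels, 5 with a dye term and 0 on arrays 2 and 3 only, and 1 to 4 with 1 array left out. The count past the adjusted threshold for the dye term went from 0 to 1 (IFT80, adjusted p 0.04998) with median centring, where 989 of all probes passed. The median ratio of 0.08 became 0.12 in the authors' deposited ratios and 0.039 on arrays 2 and 3 only, and lay between 0.043 and 0.085 with 1 array left out, lowest without array 1. The median of the transition zone and ciliary membrane list was 0.0898 in the deposited ratios, against 0.0478, and 0.0465 to 0.0923 with 1 array left out. That of the RFX and FOXJ1 list turned from 0.01 to -0.0549 on arrays 2 and 3 only. The motile cilium median turned from 0.09 to -0.09 there, and was 0.03 without array 1 and 0.20 without array 2. Probes above 0 numbered 28 to 33 of 44 with 1 array left out. Between 0 and 6 of the 44 probes changed sign per alternative, and 9 on arrays 2 and 3 only. The cause of these moves was not tested. Each ratio already pairs the 2 pools of 1 array, and no further replicate block was fitted, since array numbers are not shared between the dye orientations. Signal over background limits what 5 of the 44 probes can show, since they were above the control limit in only 4 to 7 channels.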
